A study of Mus musculus with 24 samples.

Results

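The effect of an Mdm4 transgene was examined in LSK cells of mice given poly(I:C), in 10 of the 24 libraries of the study. LSK cells are the lineage-negative, Sca-1+ and Kit+ fraction of bone marrow, which contains the blood stem cells and multipotent progenitors. Poly(I:C) is a synthetic double-stranded RNA that sets off a type I interferon response and pushes stem cells into division. All poly(I:C) libraries were used and split by transgene: 4 transgenic libraries (2 Mdm4Tg with intact Fancg and 2 FancgKO_Mdm4Tg, which also lacked Fancg) against 6 non-transgenic libraries (3 WT and 3 FancgKO). All 10 libraries carry the poly(I:C) label, so the contrast is the transgene within treatment, and the 14 PBS libraries of the same 4 genotypes (6 transgenic, 8 not) served for comparison. The labels give no dose, timing or age, do not name the promoter or the copy number of the transgene, and do not state separate animals, so a p-value here reflects library-to-library spread that may be technical.

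Mdm4 encodes a partner of p53 that binds its activation domain and holds this tumour suppressor in check, alongside the ligase encoded by Mdm2. Active p53 switches on genes for cell cycle arrest, cell death and repair, Mdm2 among them, and this closes a feedback loop. In blood stem cells p53 limits self-renewal and removes cells with damaged DNA, the kind of damage that the Fanconi pathway, to which Fancg belongs, repairs. The comparison asks which genes differ when Mdm4 is raised in cells that have been driven by poly(I:C).

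The p53 readouts are introduced by their promoters, because the contrast bears on p53 and its direct targets carry a recognisable DNA element. The half-site of the p53 consensus, 10 bases long and identical on both strands, was searched in RefSeq windows of 300 bases (250 before to 50 after a start, build GRCm38.p6). Of the 54 p53 target genes tested, 42 had a window, and 15 of the 42 (35.7%) held at least 1 half-site, against 9.55% of the 27025 genes with a RefSeq window. Only Cdkn1a among the 42 had 2 half-sites no more than 13 bases apart, an arrangement found in 0.074% of those 27025 genes. The 250 bases before the start are shown for 3 central readouts, with the half-sites in capitals: Cdkn1a, the cell cycle inhibitor p21 (chr17:29090729-29090978, plus strand); Bax, a pore-forming death protein (chr7:45466899-45467148, minus strand); and Mdm2 (chr10:117710759-117711008, minus strand).
Cdkn1a: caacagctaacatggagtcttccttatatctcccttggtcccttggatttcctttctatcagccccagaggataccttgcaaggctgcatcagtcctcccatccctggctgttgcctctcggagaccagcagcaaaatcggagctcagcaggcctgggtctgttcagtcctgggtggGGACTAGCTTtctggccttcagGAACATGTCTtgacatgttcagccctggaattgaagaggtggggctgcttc
Bax: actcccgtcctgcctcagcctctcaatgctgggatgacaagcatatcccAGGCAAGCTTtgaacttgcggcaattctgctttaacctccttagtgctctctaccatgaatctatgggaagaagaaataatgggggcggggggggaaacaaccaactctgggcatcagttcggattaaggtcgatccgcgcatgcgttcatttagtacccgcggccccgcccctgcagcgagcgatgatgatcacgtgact
Mdm2: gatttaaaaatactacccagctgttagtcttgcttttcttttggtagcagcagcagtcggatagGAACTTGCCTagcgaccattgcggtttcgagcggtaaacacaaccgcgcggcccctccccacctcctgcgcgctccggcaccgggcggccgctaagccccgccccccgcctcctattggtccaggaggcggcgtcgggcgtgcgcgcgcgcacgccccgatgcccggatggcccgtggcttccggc
A gene can have more than 1 annotated start, and the 42 genes had 57 windows. For each gene shown, the window with the most half-sites was picked. From the annotated start of that window, the first half-site starts at position -73 in Cdkn1a, -201 in Bax and -186 in Mdm2. A match describes letters and does not show that p53 binds there.

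The 10 libraries held 1697596 to 8229715 reads (median 4251220.5), and 11742 genes had a normalised count of 10 or more in at least 2 of them. Markers of the gate were present: Kit lay at 1502 to 2075 in the non-transgenic and 1483 to 1954 in the transgenic libraries, and Cd34, Flt3, Meis1 and Hlf were detected in all 10, while Ly6a, which encodes Sca-1, was low (16.3 to 41.0 and 14.2 to 37.0). Of the defining markers of mature cells, Ms4a1, Cd3e, Cd8a, Ly6g and C1qa did not exceed 1.415 in any library. The summed markers of mast cells and basophils (4 of 4 in the table) ran from 246.9 to 399.9 without and 347.7 to 500.0 with the transgene, and those of megakaryocytes from 61.1 to 202.0 and 89.0 to 138.4. Libraries with Xist, the RNA of the inactive X, above 1000 were all non-transgenic: WT replicates 6 and 7 (5943 and 20207) and FancgKO replicate 6 (13767), whereas all 4 transgenic libraries had 1.20 or less. WT replicate 6 also carried the Y-linked Ddx3y at 222.6, and FancgKO replicate 7 had Xist at 362.5 with Ddx3y at 364.7. Mitochondrial reads made up 9.41% to 10.6% in the libraries numbered 8 and 5.27% to 7.67% in the others, and the number 6 occurs only without the transgene.

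Mdm4 was higher in every transgenic library than in any other. Its normalised count was 785.8, 940.5 and 750.9 in WT replicates 6, 7 and 8, and 784.6, 931.3 and 906.6 in FancgKO replicates 6, 7 and 8. In the transgenic libraries it was 5848 and 5175 in Mdm4Tg replicates 7 and 8, and 5899 and 5023 in FancgKO_Mdm4Tg replicates 7 and 8. The groups did not overlap, and the mean with the transgene was 6.46 times that without it. On the log2(normalised count + 1) scale used throughout, the difference was 2.69 ± 0.11 (SE, n = 4 and 6; limma adjusted p = 2.31e-07). The gene, ENSMUSG00000054387, spans chromosome 1 from 132959484 to 133030561 on the minus strand of mm10, and the table holds 1 value per gene, so reads of the transgene and of the resident gene cannot be told apart.

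**Figure D1:**
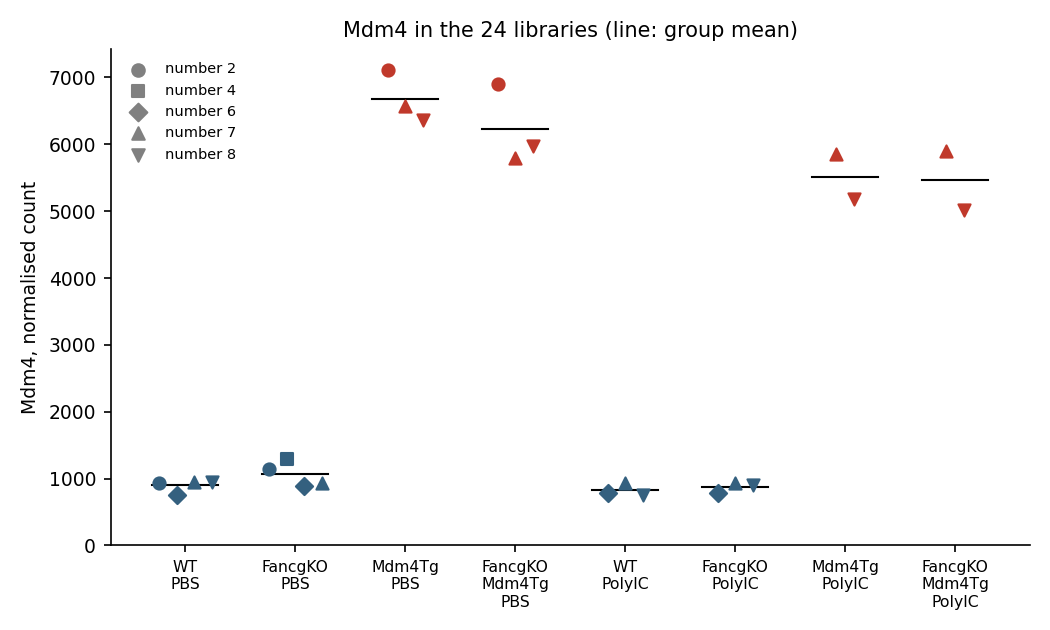
Normalised count of Mdm4 (vertical axis, from 0) in each of the 24 libraries by group, with the replicate number as the marker and the group mean as a line. The 4 transgenic poly(I:C) libraries sit between 5023 and 5899, and the 6 others between 750.9 and 940.5.

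Mdm4 rose on both Fancg backgrounds and with both treatments. On intact Fancg the log2 difference was 2.74 ± 0.17 (n = 2 and 3; limma adjusted p = 8.58e-05), and on the Fancg knockout it was 2.64 ± 0.17 (n = 2 and 3; limma adjusted p = 1.26e-04). The difference between these 2 effects was -0.10 ± 0.24 (limma adjusted p = 1.00). With PBS the effect was 2.73 ± 0.10 (n = 6 and 8; limma adjusted p = 9.36e-15), and the poly(I:C) effect less the PBS effect was -0.04 ± 0.15 (limma adjusted p = 1.00). Within the libraries numbered 7 the log2 difference of Mdm4 was 2.65, and within those numbered 8 it was 2.63.

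No other gene passed. Limma called 1 of 11742 genes higher, which is 0.00852%, and 0 lower, with 46 (0.392%) higher and 42 (0.358%) lower at an unadjusted p under 0.05. The total of 88 genes (0.749%) is below the 0.05 share that this threshold gives when nothing differs. The p-values of this fit therefore lean towards too large, and the reason was not tested. On whole reads recovered from the table edgeR called 1 gene, Mdm4, and 83 at an unadjusted p under 0.05, while DESeq2 called Mdm4 and Xist. In 23 genes (0.196%) all 4 transgenic libraries lay above all 6 others, and in 21 genes (0.179%) all lay below. With the replicate number as a block, limma called Mdm4 alone (2.64 ± 0.06, n = 4 and 6), and 420 genes (3.58%) had an unadjusted p under 0.05, 252 of them higher (2.15%). With Xist as a covariate (above 1000 or not), and in the 7 libraries with Xist below 1000 (4 and 3), limma also called Mdm4 alone. FancgKO replicate 7, with Xist at 362.5, is among these 7 libraries. In the block the number 6 libraries have no transgenic partner and add nothing to the transgene estimate.

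**Figure D2:**
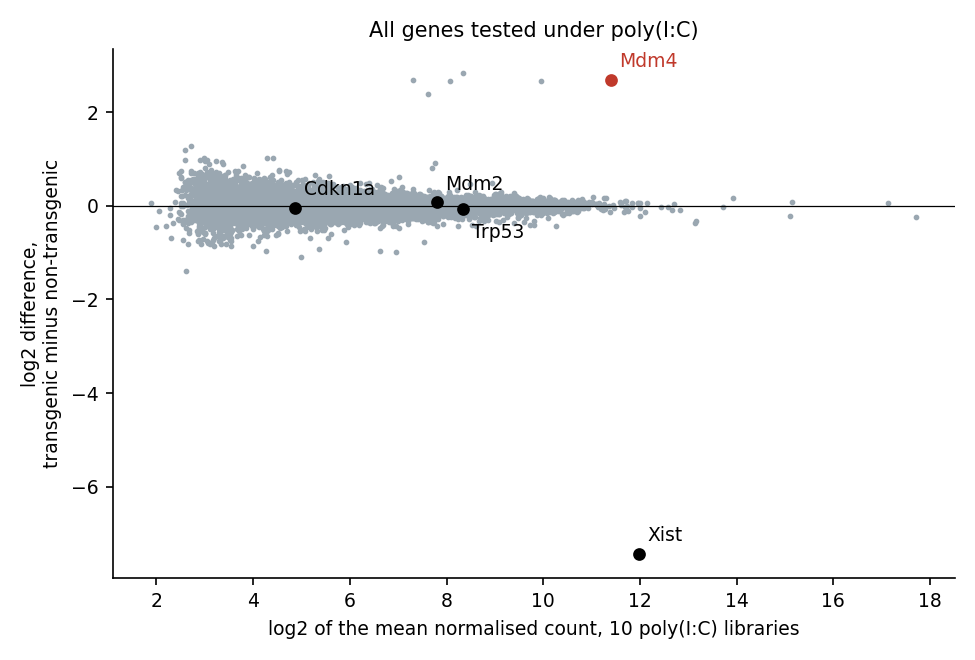
Log2 difference between transgenic and non-transgenic poly(I:C) libraries (vertical axis) against log2 of the mean normalised count (horizontal axis), 1 point per gene tested. Mdm4 in red, at 2.69, is the 1 gene that passed, and Xist, at -7.43, did not pass.

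Mdm2 and Trp53, the counterparts of Mdm4 in the p53 loop, did not pass, and their transgenic and non-transgenic values overlapped. Mdm2, the ligase that marks p53 for degradation and itself a p53 target, had 240.2, 229.7, 216.9 and 226.9 normalised counts in the transgenic libraries (Mdm4Tg replicates 7 and 8, then FancgKO_Mdm4Tg replicates 7 and 8). In the 6 others it ran from 163.3 over a median of 220.1 to 261.7. The transgenic values lie inside that range, and the log2 difference was 0.08 ± 0.13 (95% interval -0.21 to 0.36). Trp53, which encodes p53 itself, had 368.6, 281.5, 310.3 and 304.7 in the same order, against 288.8 to 401.0 (median 327.6) in the others. Its groups overlap, with a log2 difference of -0.07 ± 0.12 (95% interval -0.33 to 0.19). Of the 15 p53 regulators tested, 11 were positive and 4 negative with a median of 0.04, and Mdm4 was the 1 that passed. Among the others the smallest p-values belonged to Rfwd2, the gene of a p53 ligase also known as Cop1, at 0.18 ± 0.12, and to the damage kinase genes Atm, at 0.12 ± 0.10, and Chek1, at 0.15 ± 0.15 (n = 4 and 6).

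None of the 54 p53 targets tested passed, of 64 listed and 63 in the table. Lrmp, at -0.11, was listed by mistake and is counted in these 54, among the repair and metabolism genes. Of these 54, 24 were positive and 30 negative, with a median log2 difference of -0.03, against 51% positive (50.8% with the replicate block) and a median of 0.00 over all 11742 genes. The median half-width of their 95% intervals was 0.44, and 0.31 with the replicate block. These intervals are not adjusted over all genes, so a call for the typical target needed a larger difference, of a size not computed here. With the replicate block 22 of the 54 were positive (median -0.03). Within the libraries numbered 7 the median was 0.02 and within those numbered 8 it was -0.03.

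Arrest genes were led by Cdkn1a, whose normalised counts were 33.4, 20.3, 31.2 and 30.7 in the transgenic libraries and 21.9 to 33.0 (median 31.1) in the others. The lowest value of all 10 was that of Mdm4Tg replicate 8, the ranges overlap, and the log2 difference was -0.05 ± 0.18 (95% interval -0.44 to 0.34). Of the 19 arrest and feedback genes tested 8 were positive and 11 negative (median -0.03). The smallest p in this group was that of Zmat3, an RNA-binding protein gene induced by p53, at -0.29 ± 0.20.

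Death genes had differences from -0.64 to 0.37. Bax had 16.7, 21.9, 25.2 and 25.9 normalised counts with the transgene and 19.2 to 46.4 (median 27.2) without it. Its ranges overlap, and the log2 difference was -0.33 ± 0.22 (95% interval -0.80 to 0.15), or -0.10 ± 0.17 with the replicate block. Perp, a membrane protein gene of the p53 death programme, was at -0.64 ± 0.33 on counts of 3.59 to 17.7, and the executioner caspase gene Casp6 was at 0.37 ± 0.22. Of the 16 genes tested 8 were positive and 8 negative (median 0.01). Of the 19 repair and metabolism genes 8 were positive and 11 negative (median -0.04), with Ercc5, a nuclease gene of excision repair, at 0.24 ± 0.14 and Sco2, a copper chaperone gene of the respiratory chain, at -0.48 ± 0.34.

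The direction of the targets can be set beside the half-sites. The 15 targets with a p53 half-site in the window had 9 positive and 6 negative values with a median of 0.03 and a range of -0.33 to 0.13. The 27 without one had 10 positive and 17 negative values with a median of -0.05 and a range of -0.55 to 0.37. The difference between these sets was not tested.

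**Figure D3:**
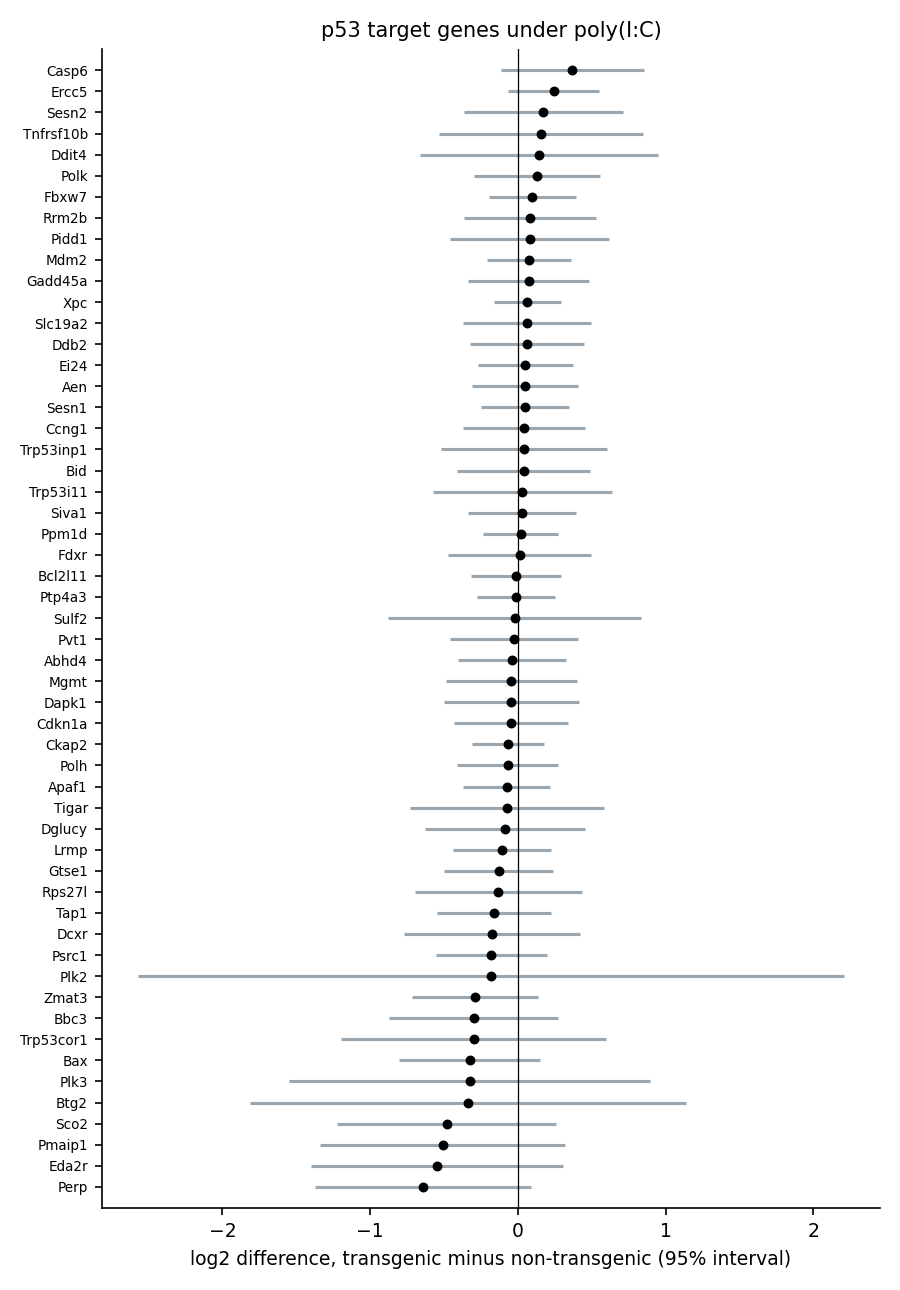
Log2 difference between transgenic and non-transgenic poly(I:C) libraries for each of the 54 p53 targets tested (points), with 95% intervals from limma (bars). Lrmp is among them by mistake. All intervals include 0, with Perp lowest at -0.64 and Casp6 highest at 0.37.

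On the higher side, Hemgn had the smallest p after Mdm4 among genes with a mean normalised count of at least 50. Hemgn, which encodes the haematopoietic nuclear protein hemogen, had 65.0, 73.0, 59.9 and 78.3 normalised counts with the transgene and 45.8 to 56.4 (median 51.8) without it. All 4 transgenic libraries were above all 6 others, at a log2 difference of 0.42 ± 0.13 (limma adjusted p = 1.00). With PBS Hemgn was at -0.22, and the difference between the poly(I:C) and PBS effects was 0.63 ± 0.19 (limma unadjusted p = 0.003, adjusted p = 1.00). Gnb4, a G protein beta subunit gene, had 236.8, 202.3, 256.4 and 206.6 against 162.7 to 198.6, again without overlap, at 0.33 ± 0.12. The zinc-finger gene Zfp664 (0.25 ± 0.10) and Naa16, of a protein acetyltransferase (0.30 ± 0.12), also did not overlap. Over all 11742 genes tested, 23 (0.196%) were separated in this direction. The genes named here were picked by p in the same 10 libraries, so the lack of overlap adds no separate evidence. St8sia6, a sialyltransferase gene, at 0.62 ± 0.25, Zfp595 at 0.43 ± 0.17, D130019J16Rik at 0.49 ± 0.20 and Slc35a1, the transporter gene for the sialic acid donor, at 0.39 ± 0.17 overlapped.

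On the lower side, Tnfrsf1a, the main receptor gene for tumour necrosis factor, had 129.3, 132.1, 121.0 and 127.8 normalised counts with the transgene and 134.6 to 195.8 (median 158.0) without it. The groups did not overlap, which held in this direction for 21 of all 11742 genes tested (0.179%). The genes named here were also picked by p in the same 10 libraries. The difference was -0.33 ± 0.12 (limma unadjusted p = 0.0206, adjusted p = 1.00). Mpdu1 (-0.32 ± 0.12), needed for protein glycosylation, Get4 (-0.40 ± 0.15), of the pathway that inserts tail-anchored proteins, the splicing factor gene Prpf31 (-0.26 ± 0.11) and the spindle gene Knstrn (-0.24 ± 0.10) showed no overlap either. Cpt1a, the gate enzyme of fatty acid entry into mitochondria, had 321.1, 273.8, 351.0 and 281.1 against 300.4 to 474.3 (median 414.7). Its ranges overlap, with a log2 difference of -0.41 ± 0.14, and with the replicate block it was -0.41 ± 0.08 (limma adjusted p = 0.479). Klf11, a repressor gene of the Krüppel-like family, was at -0.51 ± 0.17 and overlapped. Xist, whose 3 high libraries are all non-transgenic, was at -7.43 ± 2.75 (limma unadjusted p = 0.0194, adjusted p = 1.00) with overlapping groups, and DESeq2 called it. The mitochondrial ribosomal protein genes Mrpl38 and Mrps7 were at -0.51 ± 0.19 and -0.35 ± 0.15.

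Interferon and RNA-sensing genes, the programme that poly(I:C) itself triggers, had no member that passed. Of the 49 interferon-stimulated genes tested 11 were positive and 38 negative (median -0.08). Their median was -0.15 on intact Fancg and 0.05 on the Fancg knockout, and the difference of the effects called 0 genes by limma, edgeR and DESeq2, with 18 (0.153%) at an unadjusted limma p under 0.05. Rsad2, the antiviral enzyme viperin, had 20.8, 30.8, 26.4 and 30.7 normalised counts with the transgene and 23.0 to 41.4 (median 33.4) without it, overlapping ranges with a log2 difference of -0.26 ± 0.19. Cmpk2, its neighbour and a mitochondrial nucleotide kinase gene, was at -0.21 ± 0.16 and Herc6, a ligase gene that attaches ISG15, at 0.19 ± 0.15. Of 23 genes of double-stranded RNA sensing 4 were positive and 19 negative (median -0.07), among them the sensor gene Dhx58 at -0.28 ± 0.23 and the interferon regulator gene Irf7 at -0.24 ± 0.20.

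Under poly(I:C), lymphoid and myeloid progenitor genes were mostly of one sign without the block and evenly split with it, and none passed in either fit. With PBS they were mostly of one sign in both fits. In these bulk libraries fewer cells of a type and less RNA per cell cannot be told apart. Of 16 lymphoid progenitor genes 15 were positive (median 0.24), but 8 of 16 with the replicate block (median 0.01). With PBS 15 of the 16 were positive without the block (median 0.30) and also with it (median 0.09). Dntt, the terminal transferase of early lymphocytes, had 130.1, 466.5, 178.5 and 257.5 normalised counts with the transgene and 52.8 to 362.6 (median 134.5) without it. Its groups overlap widely, with a log2 difference of 0.80 ± 0.58, or 0.18 ± 0.23 with the block. Bcl11a, a transcription factor gene of early lymphocytes, was at 0.24 ± 0.11. Of 30 myeloid progenitor genes 27 were negative (median -0.16), but 15 of 30 were positive with the block (median 0.01). Within the libraries numbered 7, 24 of the 30 were positive (median 0.11), and within those numbered 8, 5 of 30 (median -0.15). With PBS 1 of the 30 was positive without the block (median -0.40) and 4 with it (median -0.17). Mpo, the granule enzyme myeloperoxidase, had 8603, 6103, 6479 and 8159 against 4625 to 16377 (median 9880), which overlap, at -0.37 ± 0.29.

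The libraries numbered 6, which lack a transgenic partner, were at the ends of these ranges. The summed lymphoid progenitor genes were 5712 in WT replicate 6 and 5353 in FancgKO replicate 6, against 6695 to 8355 in the 4 transgenic and 6851 to 7592 in the other 4 libraries. The summed myeloid progenitor genes were 26185 and 34195 in these 2 libraries, against 14099 to 23320 and 10770 to 24133. Both libraries also had high Xist, and the part of either in these signs was not tested.

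**Figure D4:**
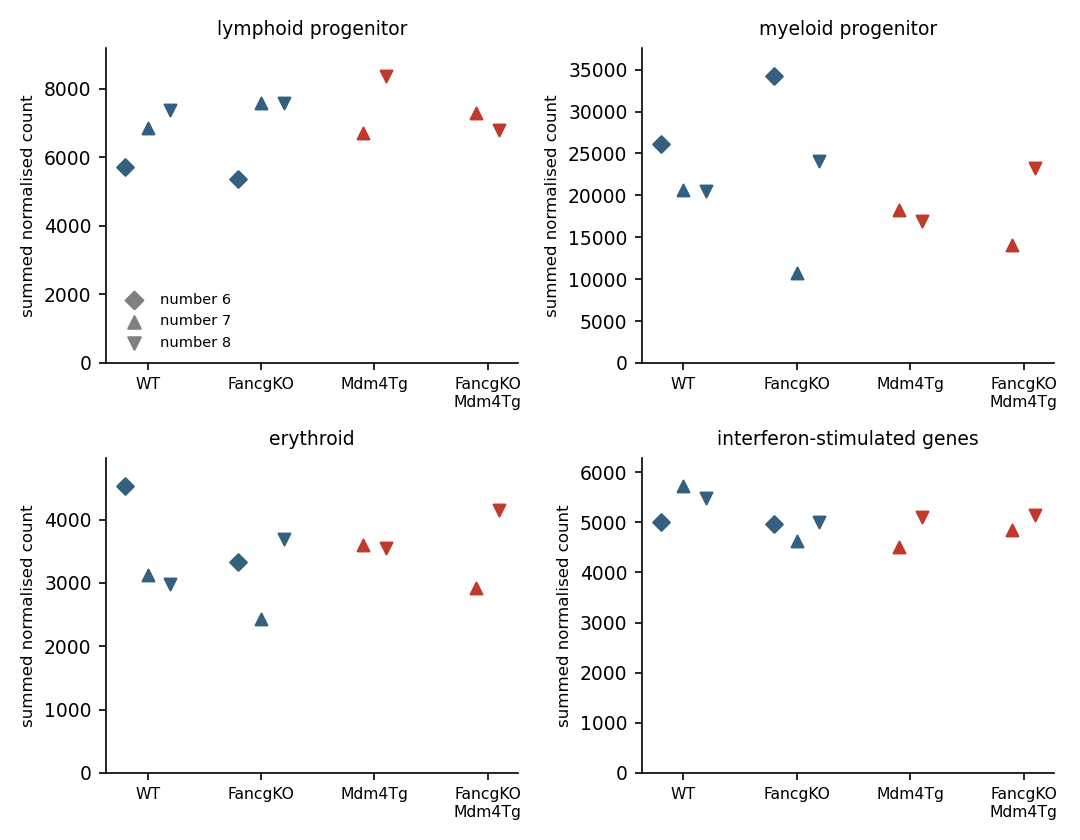
Summed normalised counts of 4 gene lists (vertical axes, from 0) in the 10 poly(I:C) libraries by genotype, with the replicate number as the marker. The libraries numbered 6 are lowest for lymphoid progenitor genes, at 5353 and 5712, and highest for myeloid progenitor genes, at 26185 and 34195.

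Erythroid genes had no call over the 10 libraries, with or without the block. Some members were called only in the fits within 1 replicate number described below. Of 25 tested 14 were positive without the block (median 0.01) and 23 with it (median 0.25). With the block 5 of the 25 had an unadjusted p under 0.05 in the higher direction, against 2.15% of all genes, and without the block 1 of the 25 (Hemgn), against 0.392%. Car2, a carbonic anhydrase gene, was at 0.21 ± 0.12. Of 36 stem cell genes 21 were positive (median 0.05), and 17 with the block (median -0.02). Mycn was at 0.29 ± 0.15 and the homeobox gene Hoxa10 at 0.49 ± 0.25. Kit, the receptor for stem cell factor, was at 0.03 ± 0.12. Of 9 mast cell and basophil genes 5 were positive and 7 with the block. Cpa3, a mast cell protease gene, was at 0.28 ± 0.16, and Ms4a2, the beta chain gene of the IgE receptor, at 0.35 ± 0.23.

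Growth and division genes had 0 calls in every list by limma, with and without the block. Of 39 replication histone genes 33 were negative (median -0.15), but 20 were positive with the block (median 0.00). Of 30 mitosis genes 26 were negative (median -0.08), and 23.3% were positive with the block. Racgap1, of the cytokinesis machinery, was at -0.21 ± 0.11. Of 35 S phase genes 22 were negative (median -0.05). Of 78 cytosolic ribosomal protein genes 53 were negative (median -0.04), but 64 were positive with the block (median 0.06). Of 73 oxidative phosphorylation genes 55 were negative, and of 22 genes of the unfolded protein response 18, whereas 49 and 16 were positive with the block.

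**Figure D5:**
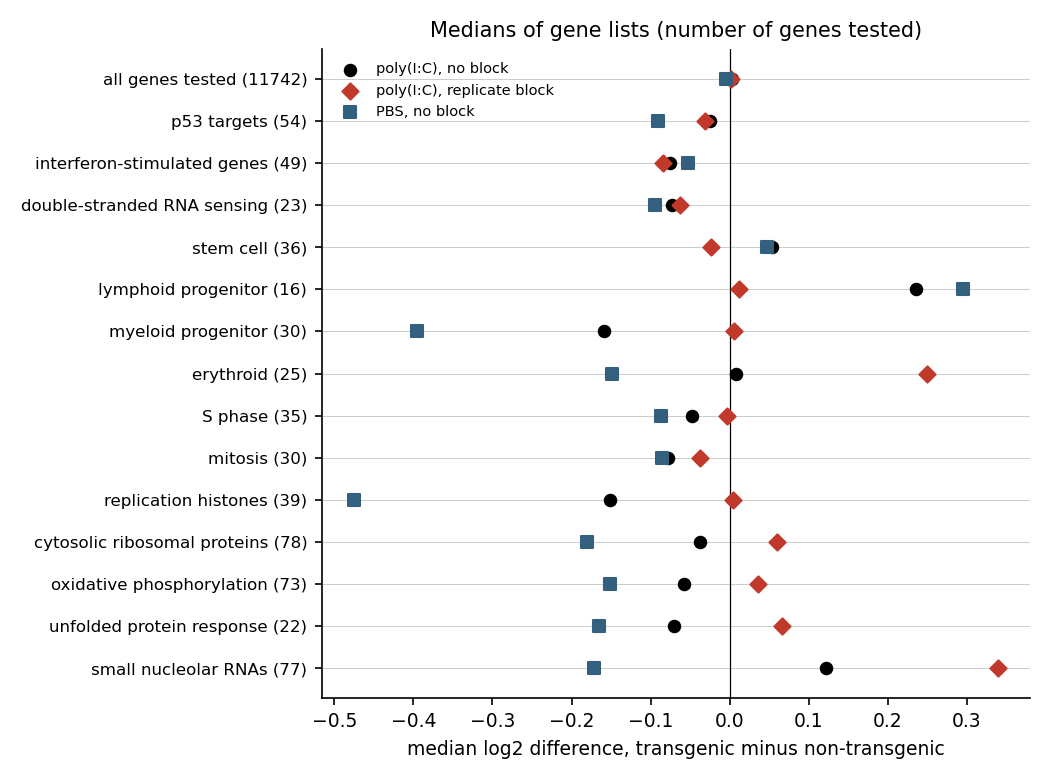
Median log2 difference between transgenic and non-transgenic libraries (horizontal axis) for gene lists, with the number of genes tested in brackets: poly(I:C) without the block (circles), poly(I:C) with the replicate block (diamonds) and PBS (squares). The p53 targets stay at -0.03 in both poly(I:C) fits, while the lymphoid progenitor median goes from 0.24 to 0.01 and the erythroid median from 0.01 to 0.25.

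DNA repair genes, on which Fancg loss bears, had 0 calls. Of 27 Fanconi pathway genes 12 were positive and 15 negative (median -0.02), and of 25 genes of homologous recombination and checkpoint 13 were positive (median 0.00). Fancg itself was at 68.4, 78.4 and 70.1 in WT, 49.4, 59.7 and 48.9 in FancgKO, 60.9 and 56.7 in Mdm4Tg and 46.7 and 53.3 in FancgKO_Mdm4Tg. Its count covers the whole gene, so reads outside a deleted part could remain and the knockout label is not checked by it.

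No gene passed the test of a difference in the transgene effect by Fancg status or by treatment. Limma, edgeR and DESeq2 each called 0 genes for the difference between poly(I:C) and PBS, with 62 (0.491%) at an unadjusted limma p under 0.05. With PBS limma called Mdm4 alone (0.00792% of 12628 genes), with 634 (5.02%) at an unadjusted p under 0.05, and with the replicate block it called 2 genes (0.0158%), Mdm4 and its pseudogene Mdm4-ps.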

How the data were processed

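PolyA RNA of sorted LSK cells was sequenced (CATS RNA-seq kit v2, NextSeq 500, per the labels). The deposited table gives 1 signal value for each gene in each library, a normalised count from the authors. Per the submitters' processing notes STAR and mm10 were used, and the gene counter and normalisation tool are not given in the sources used here. Columns are whole multiples of 1 value each, which returned whole reads for 100% of entries (relative tolerance 1e-06). Of 26267 genes 16217 had symbols in the table, 10006 were named from the annotation and 44 stayed unnamed.

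Log2 of the normalised count plus 1 was fitted in limma 3.58.1 (R 4.3.3, mean-variance trend) on transgene and Fancg status over the 10 poly(I:C) libraries (7 residual degrees of freedom), with Benjamini-Hochberg adjustment at 0.05 over all genes tested. The effect within each Fancg status and their difference used group means, and comparisons with PBS used all 24 libraries (12628 genes). Recovered reads were tested with edgeR 4.0.16 and DESeq2 1.42.0 as alternatives. The fit was tested on simulated data. Tables and plots used python 3.11.15, pandas 2.3.3 and matplotlib 3.10.9. Promoters came from RefSeq (GRCm38.p6).

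The groups compared and the gene lists were chosen with earlier results of these data known. Named were, at a mean normalised count of at least 50, genes that passed (at most 12 per direction) or else also the 8 smallest p-values per direction; 2 or 4 members of each of 32 lists by p; Mdm4, Mdm2, Trp53, Cdkn1a, Fancg, Kit and Ly6a; and for the other comparisons up to 6 that passed or the 3 smallest p-values per direction. Fewer are printed, and some items are not reported here. Lists of small RNA genes were added after the data were seen.

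The main fits had no term for the replicate number. It entered only as a block in alternative fits, or through fits within 1 number. Over 7276 genes, deviations from group means of libraries with 1 number correlated at 0.453 to 0.786 across the transgene (4 pairs). The 8 pairs of different numbers ran from -0.786 to 0.533 (median -0.493), so the ranges overlap. Mdm4Tg replicate 7 correlated at 0.533 with WT replicate 6 and at 0.453 with WT replicate 7. Groups of 2 give mirrored deviations, so these values are not independent. The labels do not say what a number stands for.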

Additional observations from a re-analysis of the deposited data

Results flagged for a closer look

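In 11 of 222 groups of named-gene values, 1 library lay far from the rest of its group; chance flags about 1 in 20 groups, which is near this share. All values are normalised counts under poly(I:C).

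Gm43333, an uncharacterised transcript, was at 8147 in Mdm4Tg replicate 8, against 212.6 to 295.3 in the other transgenic libraries. The gene of the small RNA Mir5099 was at 13.34 in Mdm4Tg replicate 7, against 100.1 to 130.6 in the other transgenic libraries. Trib2, a pseudokinase gene of myeloid cells, was at 89.86 in FancgKO_Mdm4Tg replicate 7, against 149.3 to 150.6 in the other transgenic libraries, and Psme1, a proteasome activator gene, at 198.5 in Mdm4Tg replicate 7, against 222.8 to 225.4 in the other transgenic libraries. Clspn, a replication checkpoint gene, stood apart in both groups: 182.1 in FancgKO_Mdm4Tg replicate 7, against 144.4 to 150.1 in the other transgenic libraries, and 158.9 in WT replicate 8, against 173.4 to 181.4 in the other non-transgenic libraries.

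Among the non-transgenic libraries, Bcl11a was at 496.4 in FancgKO replicate 6, against 612.9 to 692.5 in the other non-transgenic libraries. Cpa3 was at 134.6 in WT replicate 7, against 215.7 to 261.4 in the other non-transgenic libraries. Ms4a2 was at 61.87 in FancgKO replicate 7, against 100.6 to 131.7 in the other non-transgenic libraries. Pecam1, an adhesion molecule gene, was at 338.6 in WT replicate 7, against 210.3 to 248.6 in the other non-transgenic libraries. Camk2a, a calcium-dependent kinase gene, was at 86.83 in FancgKO replicate 7, against 49.47 to 60.63 in the other non-transgenic libraries.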

How the results depend on the processing

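Mdm4 kept its direction and its call in all 33 alternatives (log2 2.63 to 2.75, highest adjusted p 0.000958). The count of called genes stayed at 1 in 29 of the 33. DESeq2 called 2 (Mdm4 and Xist), and edgeR with the replicate block, added after the data were seen, called 3 (Mdm4, Xist and the small nucleolar RNA gene Gm26448). Fits within 1 replicate number, also added later, called 40 genes for the libraries numbered 7 (24 higher and 16 lower) and 18 for those numbered 8 (15 higher and 3 lower). Each of these fits has 4 libraries and 1 residual degree of freedom, and limma took the spread wholly from the trend over genes. A gene's own spread therefore carries almost no weight in its p. The 40 include Xist and 4 genes of the Y chromosome. Both sets include Gm43333 and the erythroid gene Car1 (log2 0.87 in number 7 and 0.51 in number 8). The 18 also include small nucleolar RNA genes, among them Snord17 (0.68), Snora23 (0.53) and Gm26448 (0.74). Leaving out 1 library at a time gave 1 to 1 called genes in the 10 fits (42 to 210 at an unadjusted p under 0.05). The pairing by replicate number, fitted as a block, left the count at 1, and it changed no call in the comparisons within Fancg status or of the effects between Fancg status or treatments, which stayed at 1, 1, 0 and 0 in every alternative. Of 3613 recomputed values of 111 named genes, 0 lost a call, 0 reversed and 13 newly passed: Xist with DESeq2 (-13.04), edgeR with the block (-11.38) and in number 7 (-10.40), and 10 others within 1 number. In 39 of the genes the sign changed in some alternative with no call. With array weights 2531 genes had an unadjusted p under 0.05, and 1 was called. The median 95% half-width was 0.408 over all genes and 1.94 for immediate early genes, and with the replicate block it was 0.271 and 0.336. These intervals are not adjusted over all genes, so a call for the typical gene needed a difference larger than its half-width. The part of read depth in these half-widths was not tested.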

Other observations

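Small nucleolar RNA genes, whose products guide modification of ribosomal RNA, were not part of the comparisons above, and the list was drawn from the annotation after the data were seen. Of 77 tested under poly(I:C), 52 had a positive difference (median log2 0.12), and 63 with the replicate block (median 0.34). With the block 27 of the 77 had an unadjusted p under 0.05 in the higher direction, against 2.15% of all genes, and without it 0 of 77, against 0.392%. None passed in limma over the 10 libraries, with or without the block, but some were called in the fit within the libraries numbered 8. Within the libraries numbered 7 the median was 0.32 and within those numbered 8 it was 0.38. With the block it was 0.51 on intact Fancg and 0.16 on the Fancg knockout, and without it 0.27 and -0.08. With PBS it was -0.08 with the block and -0.17 without. Of 25 small nuclear RNA genes 13 were positive without the block (median 0.03) and 22 with it (median 0.32). With the block 24 of the 25 were positive on intact Fancg (median 0.59) and 13 on the Fancg knockout (median 0.00). The libraries are of polyA RNA, per the labels, and the part of RNA selection or depth in these values was not tested.

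Mdm4-ps, a processed pseudogene of Mdm4 on the X chromosome, fell below the filter and was looked at after its values were seen. Its normalised count was 11.7 and 8.01 in Mdm4Tg replicates 7 and 8 and 4.79 and 8.02 in FancgKO_Mdm4Tg replicates 7 and 8, against 0 to 1.65 in the 6 non-transgenic libraries. With PBS and the replicate block limma called it beside Mdm4 (adjusted p = 0.0339). Its sequence resembles that of Mdm4, so reads shared between them make its value uncertain.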
